A study of Mus musculus with 8 samples.

Results

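Annexins, S100 proteins and galectin-1 were followed in mouse livers during acute liver failure (ALF), which was brought on either by thioacetamide (TAA), a hepatotoxin, or by an overdose of acetaminophen (APAP). The 10 genes described are Anxa1, Anxa2, Anxa3, Anxa4, Anxa5, Anxa7, S100a6, S100a10, S100a11 and Lgals1, taken by gene name from the 51826 genes of the PBS and TAA count table and the 55416 genes of the fasted table, and matched between the tables by Ensembl ID. All 10 were counted in both tables and all 10 passed the filter on low counts in both comparisons. The livers came from wild-type C57BL/6J male mice aged 8 to 9 weeks and were taken 24 h after dosing. TAA mice were fed and received 200 mg/kg into the peritoneum, and their controls were fed mice given PBS (PBS). APAP mice were fasted overnight, received 500 mg/kg into the stomach and stayed without food for 6 h more, and their controls were fasted mice given PBS (Fasted_PBS). Each of the 4 groups has 2 samples, taken here as 2 mice from the wording of the study. The sample labels name no animal, and the p-values measure the spread between these samples.

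Annexins are cytosolic proteins that bind acidic phospholipids of membranes when calcium rises, and several of them gather at wounds in the plasma membrane. S100 proteins are small EF-hand proteins, most but not all of them calcium sensors, that work as dimers and bind particular annexins. S100A10 holds annexin A2 in a tetramer at the cell surface, where it binds plasminogen and its activator, and S100A11 binds annexin A1. Galectin-1, encoded by Lgals1, is a lectin that binds beta-galactosides on cell-surface and matrix glycoproteins.

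The PBS and TAA samples held 35711238 to 41453751 counts in genes and the fasted samples 22320159 to 27110074. In TAA livers, 4348 of 16847 genes tested passed an adjusted p of 0.05 by edgeR's quasi-likelihood test, which is 25.8%, with 12.1% higher and 13.8% lower. In APAP livers, 8308 of 14794 genes passed, which is 56.2%, with 28.6% higher and 27.5% lower. The median log2 fold change of all genes tested was 0.03 after TAA and 0.04 after APAP. With scaling to library totals alone in place of the trimmed mean of M-values (TMM), this median was 0.23 and 0.22, and the share of calls that were higher was 63.4% instead of 46.7% after TAA and 61.9% instead of 51.0% after APAP.

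Of the 10 genes, 4 rose in TAA livers (Anxa2, Anxa5, S100a10 and S100a11) and the other 6 did not pass the test. None fell after TAA by edgeR's quasi-likelihood test, none was lower at an unadjusted p under 0.05, and DESeq2 called 0 lower. In APAP livers 7 rose (Anxa1, Anxa2, Anxa3, Anxa5, S100a6, S100a10 and S100a11), 2 fell (Anxa4 and Lgals1), and Anxa7 did not pass. The median log2 fold change of the 10 genes was 1.09 after TAA, beside 0.03 for all genes tested, and 1.23 after APAP, beside 0.04. Both treated samples lay above both controls for 8 of the 10 genes after TAA, against 35.9% of all genes tested, and for 0 of 10 they lay below, against 34% of all genes. After APAP, 8 lay above and 2 below, against 41.3% and 38.1% of all genes tested. The values of a sample are CPM, a gene's counts as a share of the sample's total, scaled by TMM.

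**Figure D1:**
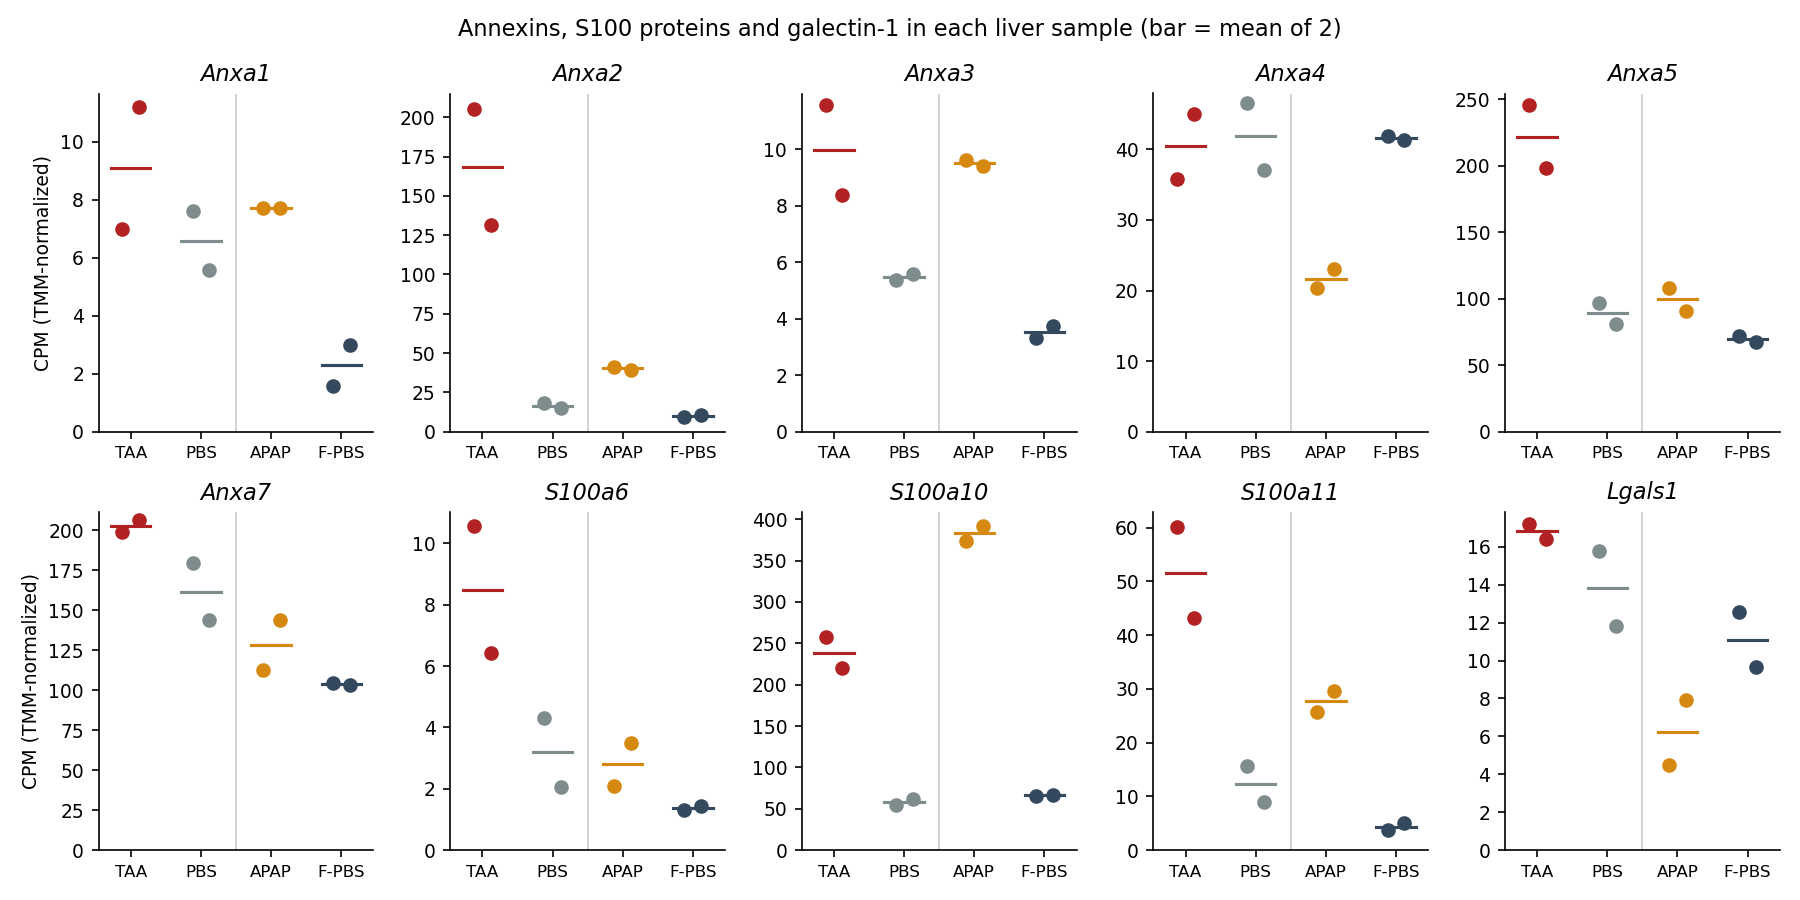
Expression of each of the 10 genes as TMM-scaled CPM (vertical axes, each from 0) in TAA, PBS, APAP and fasted PBS (F-PBS) liver samples. Points are samples, bars are means of 2. Anxa2, Anxa3, Anxa5, Anxa7, S100a6, S100a10 and S100a11 lie above their controls in both models. Of these, Anxa2, Anxa5, S100a10 and S100a11 passed the test in both. Anxa4 and Lgals1 lie below their controls after APAP but not after TAA.

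The bases just before the start of a gene are shown for Anxa2 and S100a11, the 2 of the 7 genes searched that hold the letters of an AP-1 motif. Anxa4 is shown as an example without them. RefSeq (GRCm38.p6) promoters matched 7 of the 10 genes, with 9 promoters, and 6 motifs were searched on both strands in the 250 bases before each start. Anxa3, S100a10 and Lgals1 had no matched promoter and were not searched. AP-1 letters (TGANTCA) were found in 2 of the 7 genes and in 6.75% of 32851 promoters. They were not found in Anxa5, which rose in both models, in Anxa1 and S100a6, which rose after APAP, or in Anxa7 and Anxa4. In Anxa2 they began 95 bases before the RefSeq start and in S100a11 136 and 38 bases before it. The printed stretches of these 2 genes stop earlier, at the GENCODE start of the gene, so that the letters begin 32 bases before the end of the stretch in Anxa2 and 128 and 30 bases before it in S100a11. The sequences are read 5′ to 3′ on the strand of the gene, from chr9:69453433-69453619, chr3:93520246-93520487 and chr6:86793585-86793834, with the AP-1 letters in capitals.
Anxa2: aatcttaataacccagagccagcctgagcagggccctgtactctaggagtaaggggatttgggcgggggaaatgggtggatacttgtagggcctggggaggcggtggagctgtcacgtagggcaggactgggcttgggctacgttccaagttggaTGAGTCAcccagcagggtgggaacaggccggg
S100a11: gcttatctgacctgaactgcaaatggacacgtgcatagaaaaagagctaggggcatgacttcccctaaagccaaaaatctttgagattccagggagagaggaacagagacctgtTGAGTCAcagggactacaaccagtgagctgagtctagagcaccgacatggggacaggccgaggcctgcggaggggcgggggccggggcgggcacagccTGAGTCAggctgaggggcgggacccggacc
Anxa4: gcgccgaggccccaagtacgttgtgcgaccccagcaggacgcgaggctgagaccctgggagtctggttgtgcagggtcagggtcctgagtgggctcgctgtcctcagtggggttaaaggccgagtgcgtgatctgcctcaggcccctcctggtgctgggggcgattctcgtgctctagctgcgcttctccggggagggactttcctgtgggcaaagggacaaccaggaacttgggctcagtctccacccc
Of the other motifs, the TEAD letters (GGAATG) were in 1 of the 7 genes, Anxa1, and in 12.6% of all promoters, the GC box (GGGCGG) in 3 and 32.7%, the TATA box (TATAAA) in 2 and 12.4%, the antioxidant response element (TGACNNNGC) in 1 and 10.2%, and the CRE (TGACGTCA) in 0 and 1.55%. The letters of a motif describe the sequence and do not show binding.

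Anxa2 encodes the annexin of the plasminogen-binding tetramer (ENSMUSG00000032231, chr9:69453620-69491795, plus strand, GRCm38). It stood at 205 and 132 CPM in TAA livers, against 17.9 and 14.9 CPM in PBS livers. Both TAA samples lay far above both PBS samples, and the TAA samples differed from each other by more than the controls did. The log2 fold change was 3.36 ± 0.27 (approximate SE, n = 2 per group, adjusted p = 0.00309, edgeR's quasi-likelihood test), a 10.3-fold ratio of means. In APAP livers Anxa2 was at 41.4 and 39.4 CPM, against 9.42 and 10.6 CPM in Fasted_PBS livers. The groups did not overlap, and the log2 fold change was 2.01 ± 0.13 (adjusted p = 1.15e-06, edgeR's quasi-likelihood test). Anxa2 passed the test with each sample left out in turn in both models, the log2 fold change lying between 3.0 and 3.65 after TAA and between 1.92 and 2.05 after APAP.

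S100a10 encodes the partner of annexin A2 (ENSMUSG00000041959, chr3:93555080-93564643, plus strand). It was at 257 and 220 CPM in TAA livers, against 54.1 and 62.0 CPM in PBS livers. In APAP livers it was at 374 and 392 CPM, against 66.0 and 66.3 CPM in Fasted_PBS livers. All 4 treated samples lay above all 4 controls. The log2 fold change was 2.04 ± 0.18 after TAA (adjusted p = 0.00335) and 2.53 ± 0.12 after APAP (adjusted p = 1.84e-07, edgeR's quasi-likelihood test). Leaving out each sample in turn kept the call in both models, the log2 fold change lying between 1.92 and 2.15 after TAA and between 2.48 and 2.56 after APAP.

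The 2 subunit genes did not keep one ratio. On the CPM per kilobase scale, which divides by the exonic length in GENCODE M21, S100a10 exceeded Anxa2 by 3.86 and 5.14 times in TAA livers, against 9.28 and 12.8 times in PBS livers. In APAP livers the ratio was 27.8 and 30.6, against 21.6 and 19.3 in Fasted_PBS livers. The ratio was lower than in the controls in both TAA samples and higher than in the controls in both APAP samples. The ratio in PBS livers lay below that in Fasted_PBS livers, and it was not tested. For the other pair, S100a11 over Anxa1, the ratio was 48.9 and 22.0 in TAA livers against 11.8 and 9.15 in PBS livers, and 19.0 and 21.9 in APAP livers against 13.3 and 9.55 in Fasted_PBS livers. That ratio lay above the controls in all 4 treated samples, and the TAA samples stood far apart from each other.

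**Figure D2:**
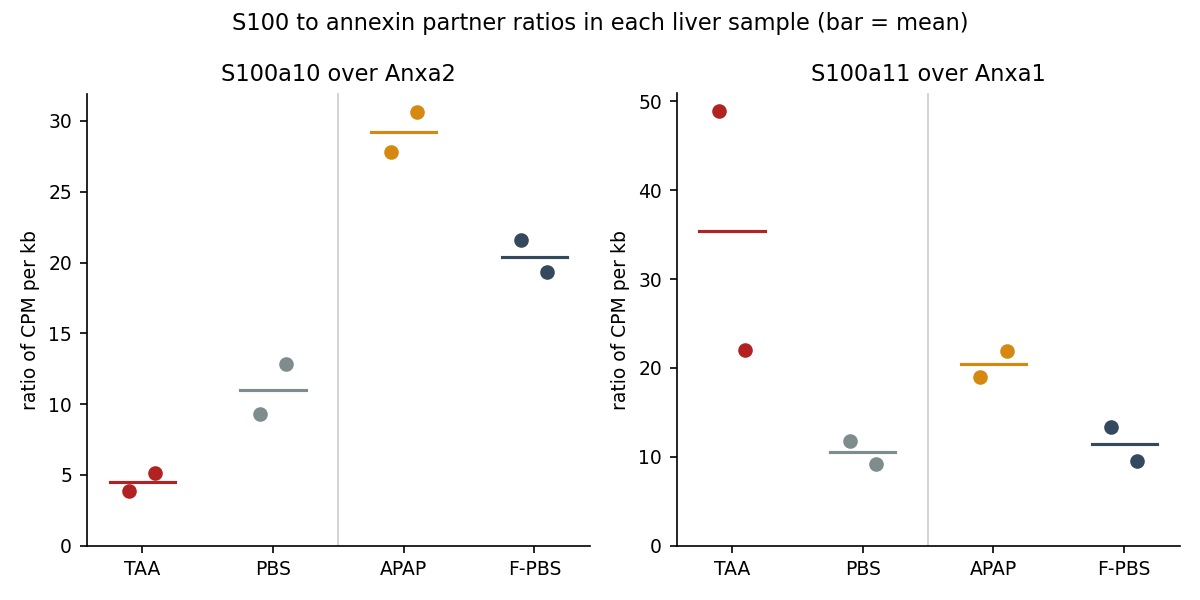
Ratio of CPM per kilobase of S100a10 over Anxa2 and of S100a11 over Anxa1 (vertical axes, from 0) in each liver sample, with bars at the mean of 2. S100a10 over Anxa2 averages 4.5 in TAA and 11 in PBS livers, and 29.2 in APAP and 20.4 in fasted PBS (F-PBS) livers.

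S100a11 encodes calgizzarin, the binding partner of annexin A1 (ENSMUSG00000027907, chr3:93520488-93526287, plus strand). It was at 60.1 and 43.2 CPM in TAA livers, against 15.7 and 8.96 CPM in PBS livers. In APAP livers it was at 25.8 and 29.7 CPM, against 3.70 and 5.03 CPM in Fasted_PBS livers. Neither pair of groups overlapped. The log2 fold change was 2.06 ± 0.32 after TAA (adjusted p = 0.0113) and 2.67 ± 0.18 after APAP (adjusted p = 1.65e-06, edgeR's quasi-likelihood test). Without PBS replicate 2 the TAA call was lost (log2 fold change 1.72, adjusted p = 0.0608). S100a11 shares 98.7% and 99.0% of 297 aligned bases with the processed pseudogenes Gm7665 and Gm12854, which held 50 and 97 counts over the PBS and TAA samples and 2.16 and 21.2 over the fasted ones. Its own counts in the fasted table were not whole numbers in any of the 4 samples, unlike those of the other 9 genes, so its level is uncertain to the extent that reads are shared with these copies. S100a11 and S100a10 lie 28.8 kb apart, and S100a6 lies 2.9 Mb before S100a11 on the same chromosome.

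Anxa1 encodes annexin A1, a glucocorticoid-induced protein that acts through formyl peptide receptors (ENSMUSG00000024659, chr19:20373428-20390944, minus strand). It was at 7.0 and 11.2 CPM in TAA livers, against 7.61 and 5.58 CPM in PBS livers, and the groups overlapped. The log2 fold change of 0.46 ± 0.31 did not pass (adjusted p = 0.310, edgeR's quasi-likelihood test). In APAP livers Anxa1 was at 7.72 and 7.71 CPM, against 1.58 and 3.0 CPM in Fasted_PBS livers. Both APAP samples lay above both controls, with a log2 fold change of 1.76 ± 0.29 (adjusted p = 6.21e-04, edgeR's quasi-likelihood test). The fasted controls rest on 39 and 65 counts.

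Anxa5 encodes annexin A5, whose binding to phosphatidylserine is used to stain dying cells (ENSMUSG00000027712, chr3:36448923-36475894, minus strand). It was at 246 and 199 CPM in TAA livers, against 97.2 and 80.7 CPM in PBS livers. The groups did not overlap, and the log2 fold change was 1.32 ± 0.19 (adjusted p = 0.00929, edgeR's quasi-likelihood test). Without PBS replicate 1 or PBS replicate 2 this call was lost, at adjusted p = 0.0613 and 0.0912. In APAP livers Anxa5 was at 108 and 90.8 CPM, against 72.0 and 67.3 CPM in Fasted_PBS livers. It rose by a log2 fold change of 0.51 ± 0.12 (adjusted p = 0.00426, edgeR's quasi-likelihood test), the smallest of the 7 increases after APAP.

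Anxa3 encodes an annexin abundant in neutrophils (ENSMUSG00000029484, chr5:96793339-96845966, plus strand). It was at 11.6 and 8.39 CPM in TAA livers, against 5.38 and 5.58 CPM in PBS livers. The groups did not overlap, but the log2 fold change of 0.86 ± 0.24 just missed the threshold (adjusted p = 0.0501, edgeR's quasi-likelihood test), and the gene passed under DESeq2 (adjusted p = 0.0267). After APAP it was at 9.61 and 9.40 CPM, against 3.33 and 3.74 CPM in Fasted_PBS livers, a log2 fold change of 1.43 ± 0.20 (adjusted p = 1.83e-04, edgeR's quasi-likelihood test). The treated samples of both models reached a similar CPM, and the fasted controls lay below the fed ones. Feeding and count table differed together between those controls and cannot be told apart, and these levels were not tested against each other.

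Anxa4 encodes an annexin of secretory epithelia (ENSMUSG00000029994, chr6:86736840-86793584, minus strand), and it fell after APAP, where 4 of the 6 annexins rose. In APAP livers it was at 20.3 and 23.1 CPM, against 41.9 and 41.3 CPM in Fasted_PBS livers. Both APAP samples lay below both controls, and the gene fell by 0.94 ± 0.12 on the log2 scale (adjusted p = 9.18e-05, edgeR's quasi-likelihood test). In TAA livers it was at 35.8 and 45.1 CPM, against 46.6 and 37.1 CPM in PBS livers, and the groups overlapped. The log2 fold change of -0.05 ± 0.19 (adjusted p = 0.863, edgeR's quasi-likelihood test) turned positive with scaling to library totals alone, at 0.15.

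Anxa7 encodes synexin, an annexin known for the fusion of secretory granules (ENSMUSG00000021814, chr14:20455260-20480133, minus strand). It was at 199 and 206 CPM in TAA livers, against 180 and 144 CPM in PBS livers. In APAP livers it was at 113 and 144 CPM, against 105 and 103 CPM in Fasted_PBS livers. The groups did not overlap in either model, and the distances were small. The log2 fold change was 0.33 ± 0.18 after TAA (adjusted p = 0.226) and 0.31 ± 0.13 after APAP (adjusted p = 0.0682, edgeR's quasi-likelihood test). After APAP it passed with library totals alone (adjusted p = 0.0137), without a filter on low counts (adjusted p = 0.0489) and without Fasted_APAP replicate 1 (adjusted p = 0.0149).

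S100a6 encodes calcyclin, a calcium sensor first known from proliferating fibroblasts (ENSMUSG00000001025, chr3:90612882-90624181, plus strand). It was at 10.6 and 6.42 CPM in TAA livers, against 4.31 and 2.07 CPM in PBS livers. The groups did not overlap, and the log2 fold change of 1.41 ± 0.44 did not pass (adjusted p = 0.0676, edgeR's quasi-likelihood test). In APAP livers S100a6 rested on 51 and 95 counts, against 32 and 31 counts in Fasted_PBS livers. Its log2 fold change of 1.03 ± 0.36 passed (adjusted p = 0.0313, edgeR's quasi-likelihood test), and the call was lost under DESeq2 (adjusted p = 0.0735). It was also lost without Fasted_PBS replicate 1 (0.0927), Fasted_PBS replicate 2 (0.0641) or Fasted_APAP replicate 2, where the log2 fold change was 0.61 (adjusted p = 0.292).

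Lgals1 (ENSMUSG00000068220, chr15:78926725-78930465, plus strand) was at 17.2 and 16.4 CPM in TAA livers, against 15.8 and 11.8 CPM in PBS livers. The samples did not overlap, but the log2 fold change of 0.28 ± 0.20 did not pass (adjusted p = 0.338, edgeR's quasi-likelihood test). In APAP livers Lgals1 was at 4.52 and 7.90 CPM, against 12.6 and 9.65 CPM in Fasted_PBS livers. It fell by 0.83 ± 0.27 on the log2 scale (adjusted p = 0.0306, edgeR's quasi-likelihood test). The call was lost without Fasted_PBS replicate 1 (adjusted p = 0.123), without Fasted_APAP replicate 1 (adjusted p = 0.116) and with scaling to library totals alone (adjusted p = 0.0682).

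**Figure D3:**
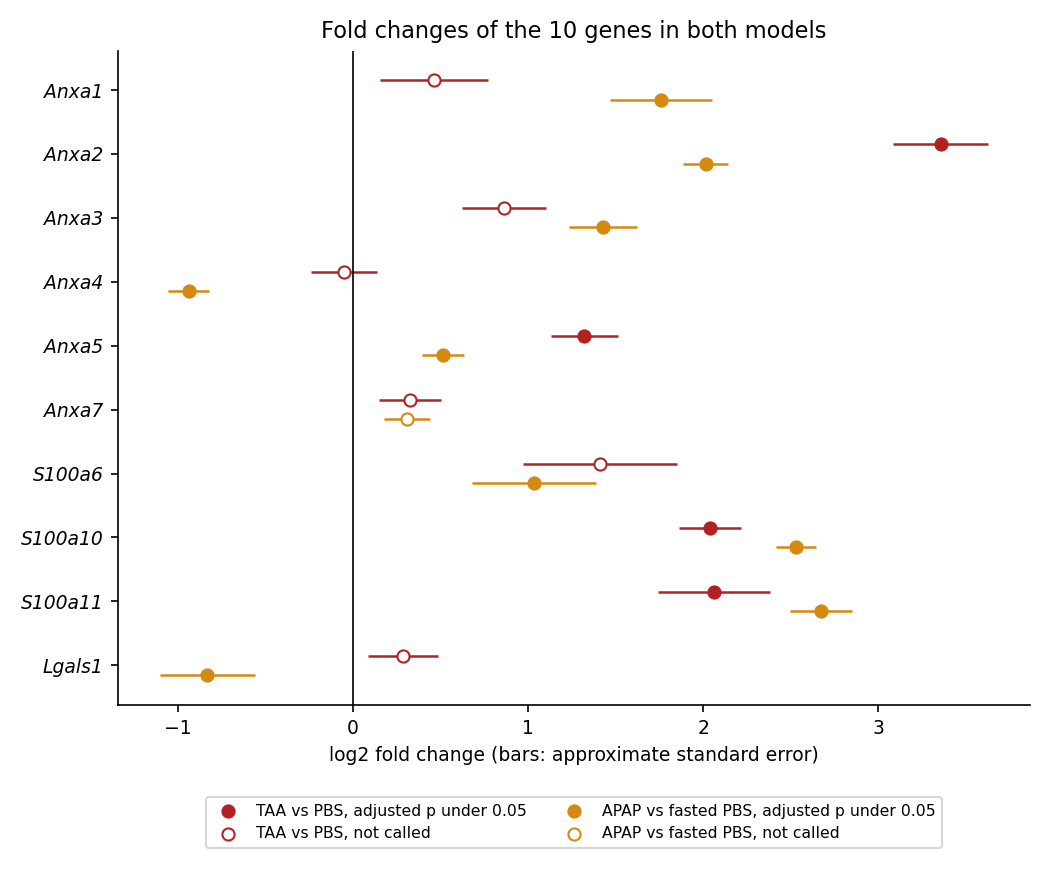
Log2 fold change (horizontal axis) of the 10 genes in TAA against PBS livers and in APAP against fasted PBS livers, with bars for the approximate standard error and filled points for an adjusted p under 0.05. Anxa2 is at 3.36 after TAA and 2.01 after APAP, S100a10 and S100a11 lie past 2 in both models, and Anxa4 (-0.05 after TAA, 0.15 with scaling to library totals alone) fell by 0.94 after APAP.

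Whether the 2 models moved the genes by different amounts was tested directly, as the TAA effect minus the APAP effect over all 8 samples. Of the 17381 genes tested, 11% passed, with 4.63% higher and 6.37% lower. Of the 10 genes, 2 passed. Anxa2 rose more after TAA, with a difference of 1.31 ± 0.29 on the log2 scale (adjusted p = 0.0258, edgeR's quasi-likelihood test). Anxa4 differed by 0.86 ± 0.23 (adjusted p = 0.0441, edgeR's quasi-likelihood test), lower after APAP and near its controls after TAA. The other 8 did not pass, among them Anxa5 (0.78, adjusted p = 0.0643), Lgals1 (1.09, adjusted p = 0.108), Anxa1 (-1.33, adjusted p = 0.117) and S100a10 (-0.52, adjusted p = 0.128, all by edgeR's quasi-likelihood test). The call of Anxa2 was lost without PBS replicate 2 (adjusted p = 0.0711) and without any 1 of the fasted samples (0.0760 to 0.100). That of Anxa4 was lost without PBS replicate 2 (adjusted p = 0.0818) and without any 1 of the fasted samples (0.0941 to 0.169). Drug, route, feeding and count table changed together between the models, so they cannot be told apart in this difference.

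The order of the 10 genes within a liver was read on the CPM per kilobase scale, and this order is a description with no test. S100a10 was the highest in TAA livers at 197 ± 22.0 (SD, n = 2), followed by Anxa5 at 125 ± 18.7 and S100a11 at 101 ± 23.4. In PBS livers Anxa5 (50.1 ± 6.55) and S100a10 (47.9 ± 4.59) led and overlapped, and S100a11 was at 24.2 ± 9.39. Anxa2 was the fourth in TAA livers at 45.2 ± 14, and the seventh in PBS livers at 4.40 ± 0.58. In APAP livers S100a10 was at 316 ± 10.4, far above Anxa5 (56.0 ± 6.89) and S100a11 (54.3 ± 5.37), which overlapped. In Fasted_PBS livers S100a10 was at 54.6 ± 0.16, above Anxa5 at 39.2 ± 1.86 and Anxa7 at 17.3 ± 0.18. Anxa1, Anxa3 and S100a6 filled the last 3 places in all groups, with the order among them changing from group to group. Neighbours in the order overlapped in 3 of 9 pairs in TAA, 3 of 9 in PBS, 1 of 9 in APAP and 3 of 9 in Fasted_PBS livers.

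**Figure D4:**
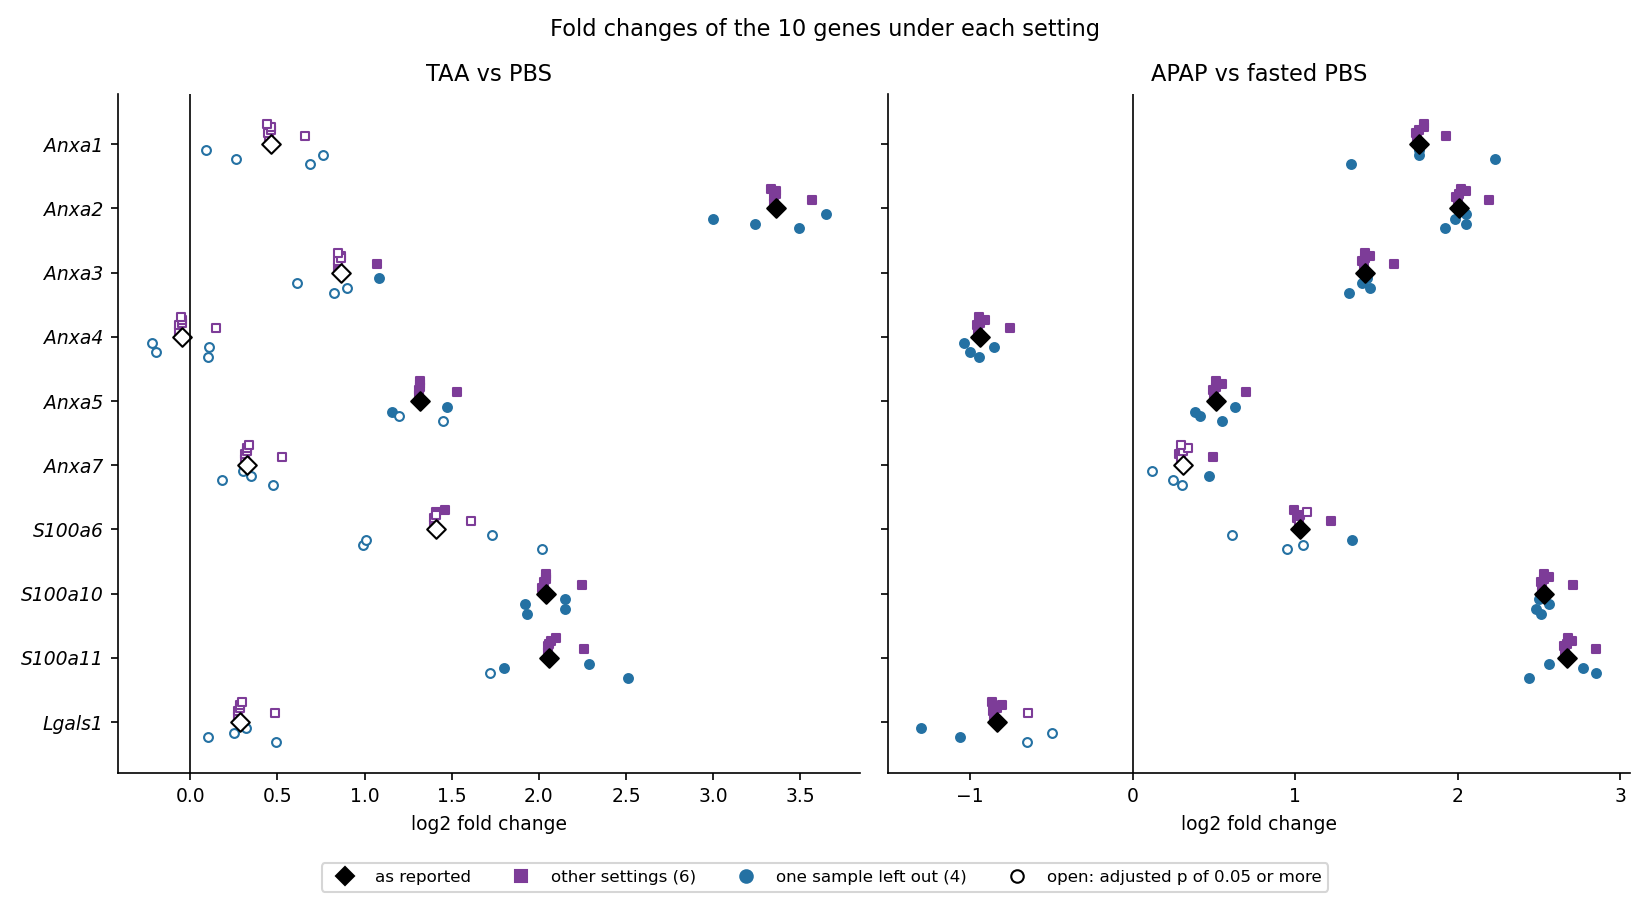
Log2 fold changes (horizontal axes) of the 10 genes as reported (diamonds), under 6 other settings (squares) and with each of 4 samples left out (circles), with filled marks for an adjusted p under 0.05. The marks of Anxa2 and S100a10 are all filled in both models, those of Anxa4 after TAA lie on both sides of 0 (0.15 with scaling to library totals alone, and -0.22 to 0.10 with a sample left out), and S100a6 and Lgals1 have open and filled marks after APAP.

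The other genes of these families did not move as a block. Of the 5 other annexins tested after TAA and the 4 tested after APAP, none rose by edgeR's quasi-likelihood test, at an unadjusted p under 0.05 or under DESeq2, and Anxa6, an annexin of endosomes and the plasma membrane, fell in both. Anxa6 was at 76.4 and 67.5 CPM in TAA livers, against 127.7 and 133.8 CPM in PBS livers (log2 fold change -0.86, adjusted p = 0.0143). After APAP it was at 28.2 and 31.2 CPM, against 90.7 and 91.4 CPM in Fasted_PBS livers (log2 fold change -1.62, adjusted p = 1.59e-06, edgeR's quasi-likelihood test). The median log2 fold change of the other annexins was -0.86 after TAA and -0.92 after APAP, beside 0.03 and 0.04 over all genes tested. Anxa6 was the only one of them called in either model. Anxa8 after TAA, at 0 and 8 counts against 20 and 13, would not have passed the filter on low counts without the controls. The same held for Anxa13, at 7 and 19 counts against 36 and 41 after TAA and 9 and 9 against 17 and 23 after APAP. The medians thus rest partly on genes with few counts.

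Of the 7 other S100 genes tested in each model, 1 rose and 1 fell after TAA, and 3 rose and 1 fell after APAP. The shares of all genes tested were 12.1% and 13.8% after TAA, and 28.6% and 27.5% after APAP. S100a8 and S100a9, which form calprotectin in neutrophils, rose after APAP. Their counts in Fasted_PBS livers were 1 and 14 for S100a8 and 10 and 17 for S100a9. Neither would have passed the filter on low counts without the APAP samples, so both had little room to come out lower. S100a9 was at 9.45 and 9.51 CPM in APAP livers, against 0.41 and 0.79 CPM in Fasted_PBS livers (log2 fold change 4.0, adjusted p = 3.96e-06), and S100a8 had a log2 fold change of 3.67 (adjusted p = 0.00565). After TAA, S100a9 at 0.31 and S100a8 at 0.55 did not pass (adjusted p = 0.304 and 0.186, edgeR's quasi-likelihood test). S100a3 had 40 and 14 counts in TAA livers and 0 in both PBS livers, and 21 and 30 counts in APAP livers and 0 in both Fasted_PBS livers. Against a floor of 3 counts over a control group it was at least 17.4-fold higher after TAA and at least 15.2-fold higher after APAP (adjusted p = 0.0267 and 4.71e-04, edgeR's quasi-likelihood test). With no control counts, S100a3 entered these tests only through the treated samples and could only come out higher. It was the 1 other S100 gene called higher after TAA and was among the 3 after APAP. None of those 3 would have passed the filter without the APAP samples. S100a2 had 9 and 16 counts in APAP livers and 0 in Fasted_PBS livers, at least 7.47-fold higher, and was too low to be tested. S100a13 fell by 0.87 on the log2 scale after TAA (adjusted p = 0.0242), and S100a1 fell by 0.45 after APAP (adjusted p = 0.0094, edgeR's quasi-likelihood test). The median of the other S100 genes was 0.31 after TAA and 0.90 after APAP. At its bound S100a3 still lay above the median, which therefore could not change. Without S100a3 the median was 0.31 after TAA and 0.36 after APAP.

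Of the 5 other galectins tested in each model, 1 rose and 2 fell after TAA, and 3 rose and 1 fell after APAP. These counts stand beside 12.1% higher and 13.8% lower of all genes after TAA, and 28.6% and 27.5% after APAP. Lgals3, the macrophage galectin, rose in both. It was at 62.9 and 39.5 CPM in TAA livers, against 19.6 and 12.3 CPM in PBS livers, and at 8.34 and 9.88 CPM in APAP livers, against 1.34 and 1.76 CPM in Fasted_PBS livers. Its log2 fold change was 1.68 (adjusted p = 0.0188) and 2.56 (adjusted p = 1.72e-05, edgeR's quasi-likelihood test), while that of Lgals1 was 0.28 and -0.83. Lgals9, a galectin with a pair of sugar-binding domains, fell in both, by 0.91 after TAA (adjusted p = 0.0238) and by 1.92 after APAP (adjusted p = 1.63e-06). Lgals8 fell by 0.59 after TAA (adjusted p = 0.0457), and Lgals4 and Lgalsl rose after APAP, by 0.70 and 0.85 on the log2 scale (adjusted p = 0.0205 and 0.0131, all by edgeR's quasi-likelihood test). The median of the other galectins was -0.59 after TAA and 0.70 after APAP.

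Among 17 partners of the proteins and genes of the plasmin system, 3 rose and 2 fell after TAA, and of 16 tested after APAP 8 rose and 4 fell. Over all genes tested, 12.1% rose and 13.8% fell after TAA, and 28.6% rose and 27.5% fell after APAP. Plaur, the urokinase receptor, rose by a log2 fold change of 3.94 after TAA (adjusted p = 0.00166) and Plat, tissue plasminogen activator, by 3.66 ± 0.95 (adjusted p = 0.0450). Plat rested there on PBS counts of 32 and 2, and would not have passed the filter on low counts without the TAA samples. Plaur and Plat also rose after APAP, Plaur by 4.45 (adjusted p = 1.75e-05), on control counts of 4 and 12, and Plat by 1.23 (adjusted p = 0.0337). Plg, the plasminogen that the annexin A2 tetramer binds, fell by 1.09 after TAA (adjusted p = 0.0202) and by 1.22 after APAP (adjusted p = 2.43e-05). Cacybp, the calcyclin-binding partner of S100A6, fell by 0.88 after APAP (adjusted p = 2.22e-04), as did Serpinf2, the plasmin inhibitor, by 1.37 (adjusted p = 1.38e-05). Pdcd6, a calcium-binding partner of annexin A7, and Sugt1 rose by 0.42 and 0.35 on the log2 scale after APAP (adjusted p = 0.00612 and 0.0374), and Lgals3bp, a galectin-3 ligand, fell by 0.77 after TAA (adjusted p = 0.0264, all by edgeR's quasi-likelihood test). The median of the list was 0.29 after TAA and 0.38 after APAP.

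Of 16 membrane repair genes, 3 rose and none fell after TAA by edgeR's quasi-likelihood test (1 lower at an unadjusted p under 0.05, 0 under DESeq2), and 6 rose and 4 fell after APAP. Among all genes tested, 12.1% rose and 13.8% fell after TAA, and 28.6% rose and 27.5% fell after APAP. Chmp4b, an ESCRT-III subunit, was at 144 and 134 CPM in TAA livers, against 81.0 and 77.6 CPM in PBS livers (log2 fold change 0.81, adjusted p = 0.0153). In APAP livers it was at 158 and 160 CPM, against 54.1 and 48.7 CPM in Fasted_PBS livers (log2 fold change 1.63, adjusted p = 1.82e-06). Its paralog Chmp4c rose by 1.85 and 1.70 (adjusted p = 0.0109 and 1.08e-04). Capn2, a calpain, rose by 0.98 after TAA (adjusted p = 0.0179), and Vps4b, the ATPase that takes ESCRT-III apart, by 1.22 after APAP (adjusted p = 7.92e-06). After APAP Capn1, Capns1 and Snap23 fell, by 1.28, 0.50 and 0.56 on the log2 scale (all by edgeR's quasi-likelihood test). The median was 0.23 after TAA and -0.01 after APAP.

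**Figure D5:**
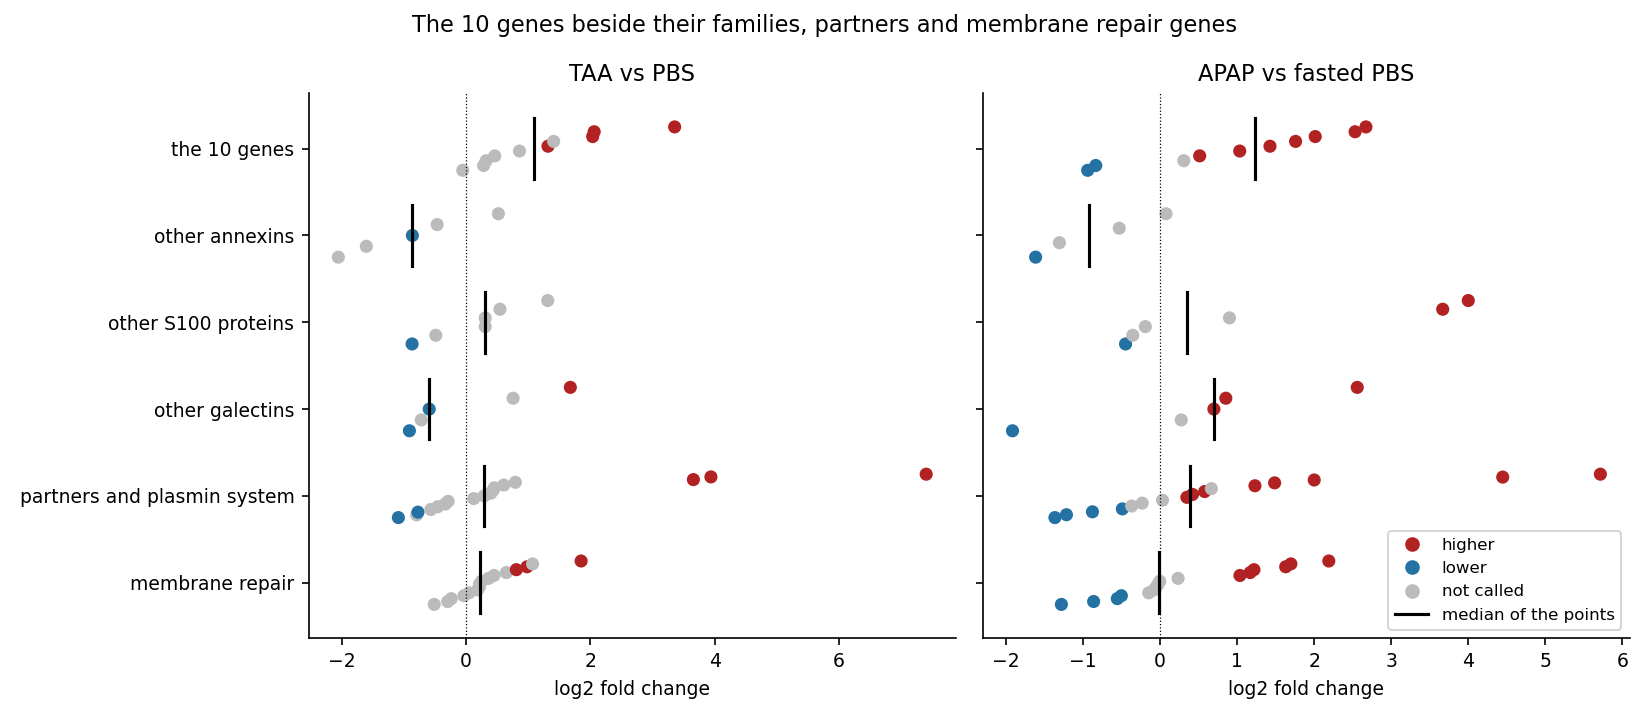
Log2 fold changes (horizontal axes) of the 10 genes and of the tested genes of 5 related lists, coloured by call, with a bar at the median of the points. S100a3 is not drawn, since its controls are all at 0, and without it the median of the other S100 genes is 0.31 after TAA and 0.36 after APAP. The 10 genes have medians of 1.09 and 1.23, and the other annexins of -0.86 and -0.92.

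In bulk liver, fewer cells of a type and less RNA per cell cannot be told apart, so the summed CPM of marker lists is given beside these results. The markers called are to be read beside 12.1% higher and 13.8% lower of all genes after TAA, and 28.6% and 27.5% after APAP. The cholangiocyte markers summed to 173 to 324 CPM in TAA livers, against 97.0 to 156 CPM in PBS livers, with 2 of 9 tested higher, and to 63.7 to 102 CPM in APAP livers, against 54.0 to 55.6 CPM in Fasted_PBS livers, with 1 of 6 higher. Sox9 rose, with a log2 fold change of 3.77 in TAA livers and 3.46 in APAP livers, and Spp1 did not pass. Cldn4, named after its values were seen, rose in TAA livers by 5.28, while Cftr (-2.01), Tspan8 (-0.84), Cldn7 (-0.56) and Krt7 (-0.08) did not pass there. Cldn4 rested on 531 and 128 counts in TAA livers, against 12 and 4 in PBS livers. It would not have passed the filter on low counts without the TAA samples. Cftr, at 9 and 4 counts against 24 and 27, would not have passed it without the PBS samples. TAA replicate 1, the higher of the TAA pair for 7 of the 10 genes, Anxa2, S100a6 and S100a11 among them, was also the higher for this sum, in which Spp1 (243 and 125 CPM) and Sox9 (57.0 and 32.6 CPM) weigh most, and the lower for 4 of the 10 markers (Krt7, Epcam, Cldn7 and Tspan8). This was not particular to cholangiocyte markers. TAA replicate 1 was also the higher for the monocyte and macrophage sum (419 against 343 CPM) and the neutrophil sum (64.4 against 43.3 CPM). It was the lower for the hepatocyte, mesothelial, stellate and fibroblast, endothelial, Kupffer and lymphocyte sums. The monocyte and macrophage markers summed to 343 to 419 CPM in TAA livers, against 217 to 259 CPM in PBS livers, and to 53.9 to 56.2 CPM in APAP livers, against 29.8 to 53.7 CPM in Fasted_PBS livers, with 5 of 12 and 5 of 10 tested higher and none lower by edgeR's quasi-likelihood test. DESeq2 called 1 of them lower in each model, and 2 after TAA and 0 after APAP were lower at an unadjusted p under 0.05. Gpnmb of that list was at 0 in Fasted_PBS livers and Chil3 at 3 and 2 counts, so both entered the APAP test only through the treated samples. Itgam, at 10 and 21 counts in Fasted_PBS livers, would not have passed the filter without the APAP samples either. The neutrophil markers summed to 43.3 to 64.4 CPM in TAA livers against 51.5 to 63.7 CPM in PBS livers, with 5 of 10 higher and 5 lower. They summed to 10.3 to 10.4 CPM in APAP livers against 2.26 to 2.48 CPM in Fasted_PBS livers, with 5 of 5 tested higher. Of these, Cxcr2, Retnlg, Mmp8 and Mmp9 had 7 or fewer counts in each Fasted_PBS sample. They entered the test only through the APAP samples and could only come out higher. Ly6g, Mpo, Retnlg and Camp were at 0 in the Fasted_PBS livers and Mpo and Elane in the APAP livers.

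The stellate and fibroblast markers summed to 312 to 446 CPM in TAA livers against 408 to 529 CPM in PBS livers, and to 362 to 369 CPM in APAP livers against 267 to 286 CPM in Fasted_PBS livers, with 2 higher and 2 lower of 11 in each model. In APAP livers, where Lgals1 fell, Dcn and Ecm1 of this list rose, by 0.95 and 0.51 on the log2 scale, and Lrat and Col3a1 fell, by 1.44 and 1.40, the last pair named after their values were seen. The Kupffer markers summed to 625 to 642 CPM in TAA livers against 785 to 901 CPM in PBS livers, with 1 higher and 6 lower of 10, and to 92.0 to 129 CPM in APAP livers against 114 to 237 CPM in Fasted_PBS livers, with 2 of 10 lower. The hepatocyte markers, all 10 of which were present in all samples, had 1 higher and 1 lower of 10 after TAA and 1 higher and 6 lower of 10 after APAP. The endothelial markers had 2 higher and 2 lower of 10 after TAA and 3 and 3 of 10 after APAP, the lymphocyte markers 1 lower of 12 and 1 lower of 2 tested, and the mesothelial markers none of 5 in either model by edgeR's quasi-likelihood test or DESeq2, with 1 in each model past an unadjusted p of 0.05. The part of any of these cell types in the results for the 10 genes was not tested.

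The genes whose pattern lay nearest to the mean of the 10 over the 8 samples were found by the mean absolute difference of centred log2 CPM, among 13812 genes. They were Map7d1 (0.0639), Kif5b (0.0735), Slc12a2 (0.0753), Rars (0.0799) and Hmga2 (0.0819). Of the 10 genes themselves, Anxa5 (0.152), Anxa3 (0.181) and S100a6 (0.211) lay nearest to their own mean, and Anxa4 (0.784) and Anxa2 (0.774) farthest from it, each of the 10 being part of that mean. Map7d1, a microtubule-associated protein, stood at a log2 fold change of 1.25 in TAA livers and 1.06 in APAP livers, and Kif5b, a kinesin, at 1.03 and 1.13. Hmga2 stood at 3.39 in TAA livers, which did not pass (adjusted p = 0.0674), and at 2.66 in APAP livers (adjusted p = 0.00667, edgeR's quasi-likelihood test). These exceed the medians of the 10 genes, 1.09 and 1.23. The centred log2 CPM add 0.5 to each CPM, so they can differ from these fold changes.

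Part of the exonic sequence of 3 of the genes is shared with another annotated gene: 98 bases of Anxa2 with the antisense gene Gm16144, 112 of Anxa3 with Gm42603 on the same strand and 75 of Anxa4 with Gm44036 on the opposite strand. These neighbours held 43, 6 and 23 counts over the PBS and TAA samples and 2, 0 and 0 over the fasted ones, against 555 or more for Anxa2 in any PBS or TAA sample. Whether the counting used strand is not given in the sources used here.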

How the data were processed

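RNA of 8 mouse liver samples was sequenced on Illumina instruments. The submitters' processing notes name Trim Galore (a read trimmer), HISAT2 (an aligner), featureCounts (a read counter) and GRCm38 (mm10), with no versions. The deposited counts of the PBS and TAA table are whole numbers. The deposited estimated counts of the fasted table are not whole in 27.0 to 29.7% of nonzero values, and were rounded. Its 548 assembled loci without a gene (0.457 to 2.46% of counts) were left out. edgeR 4.0.16 (R 4.3.3) used a minimum count of 10 and total of 15, TMM, robust quasi-likelihood tests and Benjamini-Hochberg adjustment, with calls at an adjusted p of 0.05. Standard errors are the log2 fold change over the root of F. Tests ran over all genes and were tested on simulated data. Each drug was compared with its own controls. The 10 genes and all lists were chosen with earlier results of these data known. Genes named from the related lists were at most 3 higher and 3 lower per comparison by mean CPM, plus those at 0 in one group, and the 2 most abundant of each marker list were examined. The values of 1 gene that this rule names are not reported here. DESeq2 1.42.0, library totals alone, no filter, non-robust dispersions, all 8 samples in one fit, a replicate block and each sample left out were alternatives. Positions and exonic lengths are from GENCODE M21 and similar genes from BLAST 2.17.0.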

Additional observations from a re-analysis of the deposited data

Results flagged for a closer look

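The effect on Anxa2 differed between the models by the test of the difference itself, the TAA effect being larger by 1.31 on the log2 scale (adjusted p = 0.0258, edgeR's quasi-likelihood test, n = 2 per group), with both treated samples above both controls in each model. The effect on Anxa4 also differed, by 0.859 (adjusted p = 0.0441, edgeR's quasi-likelihood test), both APAP samples lying below both Fasted_PBS samples while the TAA and PBS samples overlapped.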

How the results depend on the processing

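With library totals alone, 1 gene in place of 2 was called lower after APAP and the median log2 fold change of the 10 genes was 1.41 in place of 1.23. With non-robust dispersions, 1 in place of 2 genes passed the test of the difference. Leaving out 1 sample in turn gave 2 to 5 of the 10 genes called higher after TAA and 6 to 8 after APAP, 0 lower after TAA and 1 to 2 lower after APAP. The medians were 0.884 to 1.27 and 1.04 to 1.38. The genes called among all were 737 to 3275 after TAA, in place of 4348 (1126 without PBS replicate 1 and 737 without PBS replicate 2), and 6775 to 7404 after APAP. For the difference, 0 to 4 of the 10 genes and 698 to 2488 of all passed, in place of 2 and 1913, with 698, 773, 725 and 867 without each fasted sample. Anxa4 after TAA turned positive with library totals alone (0.147) and ranged from -0.221 to 0.105 with a sample left out. The difference of Anxa7 (-0.01) turned positive under DESeq2 (0.0322), library totals alone (0.0336) and the replicate block (0.00659), and ranged from -0.18 to 0.228 with a sample left out, and that of S100a6 from -0.0253 to 1.05. The cause was not tested. Same-numbered samples shared only a number (correlation of deviations 0.056 after TAA and 0.0612 after APAP). With the replicate block, 5 of the 10 genes rose after TAA, S100a6 (adjusted p = 0.0202, edgeR's quasi-likelihood test) being the addition, with 3869 genes called, and 7 rose and 2 fell after APAP, with 8202 called. The difference then passed for 2 of the 10 and 1476 genes, with Anxa5 gained and Anxa4 lost. DESeq2 and the fit of all 8 samples also called S100a6 and Anxa3 after TAA. Among partner and plasmin genes after TAA, 5 and 6 in place of 3 were called higher with library totals alone and with all 8 samples in one fit, and after APAP 5 in place of 8 under DESeq2. Kupffer markers called lower after TAA were 2 and 0 in place of 6 with these same 2 settings, and 2 to 5 in place of 2 after APAP over the settings run on all samples. With 2 samples per group, an exact permutation test of 1 gene cannot go below 0.333, and S100a6 has the largest standard error of the 10 genes in each model (0.44 after TAA and 0.36 after APAP).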
